A study of Mus musculus with 20 samples.

Results

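The genes examined were 9 genes for proteins of the synaptic vesicle: synaptophysin (Syp), the synapsins (Syn1, Syn2 and Syn3), synaptoporin (Synpr), synaptotagmin 1 (Syt1) and the synaptic vesicle glycoproteins 2 (Sv2a, Sv2b and Sv2c). They were found by symbol among the 39179 genes of the count tables, and all 9 were among the 14792 genes that exceeded 1 CPM (read counts scaled to library size) in 3 or more mice. The samples were whole striatum, dorsal and ventral, of both hemispheres, from 20 adult male mice of generation 17 at about 6.5 months of age. Mice came from the High-Active line, bred for home cage activity from an intercross of 8 inbred strains, or from the Control line, bred from the same founders with breeders drawn at random within families. Each line was split into 5 mice given saline and 5 given 0.25 mg/kg d-amphetamine by intraperitoneal injection, and tissue was collected 2 hours later. The resulting 4 groups are named by line and injection, as in Control saline. The study kept 1 line of each kind, so effects of selection and of drift cannot be told apart. By their labels the 10 Control mice had 8 pairs of parents and the 10 High-Active mice had 5.

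Synaptic vesicles store neurotransmitter in the presynaptic terminal and fuse with the plasma membrane when calcium enters. Synaptotagmin 1 is the calcium sensor of fast release, the synapsins tether vesicles to each other and to the cytoskeleton, and the SV2 proteins are transporter-like membrane glycoproteins that prepare vesicles for release. Synaptophysin and synaptoporin are membrane proteins of one family, and synaptophysin is widely used as a marker of presynaptic terminals. The striatum holds terminals of its own medium spiny neurons and interneurons, and terminals of cortical, thalamic and midbrain axons. The mRNA of a terminal protein lies mostly in the cell body, so striatal RNA reports mainly on genes expressed by cells whose bodies lie in the dissected tissue.

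The libraries held 32388971 to 53710713 gene-assigned reads, with a median of 41703853.5. The markers of medium spiny neurons, the main cells of the striatum, were present in every mouse, and all 10 of them were tested, with a summed level of 4475 to 7382 CPM per mouse. None of these 10 genes passed the threshold between the lines, but 9 had estimates below 0, with a median log2 fold change of -0.14. The 9 vesicle genes had 340 to 66593 reads per mouse and gene. They took 0.392% ± 0.0274 (SD, n = 10) of the counted reads in Control mice and 0.366% ± 0.0335 (SD, n = 10) in High-Active mice.

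Levels of different genes were compared as RPKM, that is CPM divided by the exon length in kilobases, averaged over the 20 mice. Syp was the most abundant of the 9 genes with 167 RPKM ± 16.8 (SD, n = 20), followed by Syt1 with 144 RPKM ± 16.4. Syn1 had 119.9 RPKM ± 16.9 and Sv2a had 100.3 RPKM ± 6.85. The order of these leading genes was not equally clear: Syp exceeded Syt1 and Syt1 exceeded Syn1 in all 20 mice, whereas Syn1 exceeded Sv2a in 17 of 20 mice. Syn2 had 47.7 RPKM ± 3.65, Sv2b 30.7 RPKM ± 9.38 and Synpr 19.8 RPKM ± 3.73. Sv2b exceeded Synpr in 17 of 20 mice, so the lowest Sv2b values lay within the range of Synpr. Sv2c had 7.07 RPKM ± 1.33, and Syn3 was the least abundant with 0.983 RPKM ± 0.162. Lengths were those of all annotated exons of a gene, so a gene that uses a short transcript is understated.

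**Figure D1:**
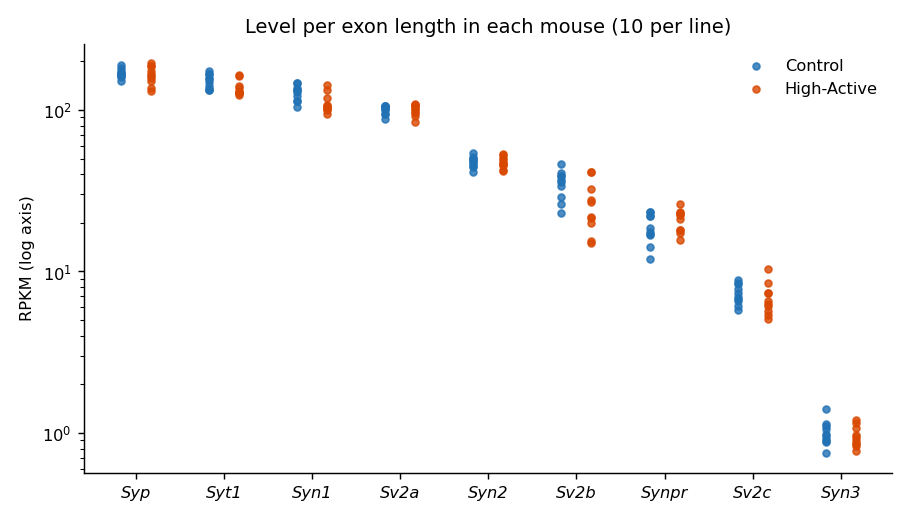
Level of each gene in RPKM (log axis) in each of 20 mice, 10 per line, ordered by the mean. The genes ran from Syp at 167 RPKM to Syn3 at 0.983 RPKM, and the points of the lines overlapped for every gene.

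The letters upstream of the gene start are shown for Syn1, Syt1 and Sv2b, the genes that differed between the lines and varied together (described next), and for Sv2a, a relative of Sv2b that did not pass. The sequences are RefSeq promoter windows of GRCm38.p6, cut to the bases before both the RefSeq and the GENCODE start, from 5′ to 3′ on the gene's strand. Windows were given for 8 of the 9 genes, and where a gene had several, only the most upstream was searched. The 5 motifs searched on both strands were the cyclic AMP response element TGACGTCA, the GC box GGGCGG, the CCAAT box CCAAT, the TATA box TATAAA and the E box CACGTG, and capitals mark each match.
Syn1 (chrX:20921005-20921168, minus strand): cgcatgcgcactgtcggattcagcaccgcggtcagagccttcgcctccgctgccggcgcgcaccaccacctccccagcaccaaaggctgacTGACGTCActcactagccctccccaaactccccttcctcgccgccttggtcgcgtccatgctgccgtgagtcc
Syt1 (chr10:109010983-109011225, minus strand): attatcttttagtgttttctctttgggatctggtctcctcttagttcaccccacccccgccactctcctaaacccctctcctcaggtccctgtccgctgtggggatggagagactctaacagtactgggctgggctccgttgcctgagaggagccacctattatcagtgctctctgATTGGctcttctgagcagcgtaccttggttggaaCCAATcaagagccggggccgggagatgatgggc
Sv2b (chr7:75309263-75309512, minus strand): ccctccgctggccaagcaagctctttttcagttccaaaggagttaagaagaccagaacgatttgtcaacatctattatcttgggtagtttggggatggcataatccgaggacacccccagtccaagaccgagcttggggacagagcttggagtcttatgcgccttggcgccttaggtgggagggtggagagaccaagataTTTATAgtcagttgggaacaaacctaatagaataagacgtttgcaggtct
Sv2a (chr3:96180977-96181150, plus strand): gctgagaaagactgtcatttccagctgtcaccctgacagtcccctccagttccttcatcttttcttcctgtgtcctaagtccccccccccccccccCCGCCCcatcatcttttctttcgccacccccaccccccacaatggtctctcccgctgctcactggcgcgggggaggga
Syn1 held 1 cyclic AMP response element, which 1.55% of all 32851 windows held in the 250 bases before the start, and no match to the other motifs. Syt1 held 2 CCAAT boxes (33.8% of windows), on opposite strands. Its 250 bases before the RefSeq start also held 1 GC box, which is not within the letters shown. Sv2b held 1 TATA box (12.4% of windows), and Sv2a 1 GC box (32.7% of windows). No motif was shared by Syn1, Syt1 and Sv2b in these letters, and the E box, present in 6.02% of windows, had no match in the searched windows of the 8 genes.

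Between the lines, 3 of the 9 genes were downregulated in High-Active relative to Control mice and none was upregulated (edgeR's quasi-likelihood test, adjusted p under 0.1). These were Sv2b, Syn1 and Syt1. Of all 14792 tested genes 14.5% passed this threshold, 6.9% in the lower and 7.63% in the higher direction. The median log2 fold change was -0.08 over the 9 genes and -0.00 over all tested genes, and 8 of the 9 estimates were below 0. In bulk tissue such as this, fewer cells of a type and less RNA per cell cannot be told apart.

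Sv2b codes for the SV2 isoform known for its high level in cortex and hippocampus. It lies on chromosome 7 (GRCm38, 75114894 to 75309262, minus strand). Its levels were 192, 219.7, 244, 328 and 329 CPM in Control saline mice and 285, 299, 309.6, 343 and 391 CPM in Control amphetamine mice. In High-Active mice they were 126, 129, 179.9, 182 and 225 CPM after saline and 167, 232, 271, 345 and 347 CPM after amphetamine. High-Active saline mice had the lowest mean and overlapped with Control saline and High-Active amphetamine mice. Over both treatments 5 of 10 High-Active mice were lower than all Control mice, while the rest overlapped with Controls. The level was 294 ± 60.4 CPM in Control and 220.3 ± 79.9 CPM in High-Active mice (SD, n = 10). Sv2b fell by 26.7%, a log2 fold change of -0.45 (SE 0.14, adjusted p = 0.0569).

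Syn1 codes for synapsin I, a phosphoprotein that holds vesicles in the reserve pool. It lies on chromosome X (20860511 to 20921004, minus strand). Its levels were 344, 374, 378, 439.6 and 482 CPM in Control saline mice and 402, 428, 438, 454 and 487 CPM in Control amphetamine mice. In High-Active mice they were 311, 332, 342, 346 and 351 CPM after saline and 337, 356, 393, 441 and 473 CPM after amphetamine. High-Active saline mice lay close together at the low end, 4 of 10 High-Active mice were lower than all Control mice, and 2 Control mice lay above every High-Active mouse. Syn1 averaged 423 ± 47.3 CPM in Control and 368 ± 51.9 CPM in High-Active mice (SD, n = 10). It fell by 13.1%, a log2 fold change of -0.20 (SE 0.07, adjusted p = 0.0651).

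Syt1 lies on chromosome 10 (108497650 to 109010982, minus strand). Its levels were 1108, 1115, 1134, 1177 and 1385 CPM in Control saline mice and 1242, 1301, 1312, 1396 and 1459 CPM in Control amphetamine mice. In High-Active mice they were 1038, 1059, 1060.15, 1073 and 1075 CPM after saline and 1082, 1139.6, 1168, 1352 and 1381 CPM after amphetamine. All 5 High-Active saline mice lay below all 5 Control saline mice, a separation in one or the other direction that 4.23% of tested genes had between these groups. Over both treatments 6 of 10 High-Active mice were lower than all Control mice. Syt1 averaged 1263 ± 127 CPM in Control and 1143 ± 124 CPM in High-Active mice (SD, n = 10). It fell by 9.57%, a log2 fold change of -0.15 (SE 0.05, adjusted p = 0.0793).

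**Figure D2:**
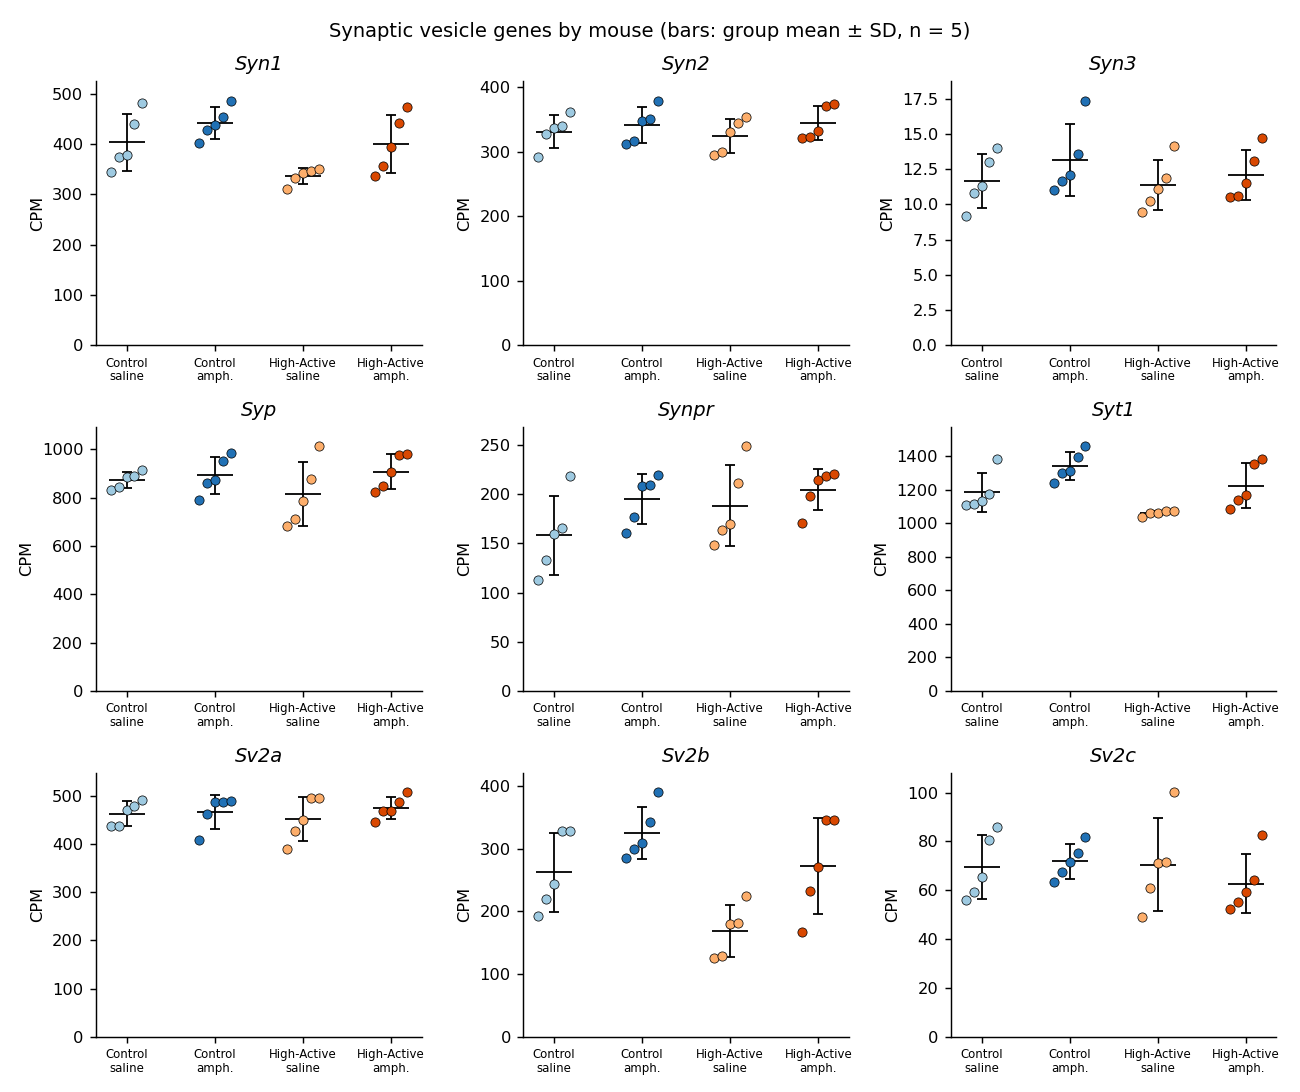
CPM of the 9 genes in each mouse, by group of 5 mice, with the group mean and SD as bars and each axis starting at 0. In Sv2b, Syn1 and Syt1 the High-Active saline mice had the lowest mean of the 4 groups, at 168, 336 and 1061 CPM. They also had the lowest mean in Syp (815 CPM), Sv2a (452 CPM), Syn2 (325 CPM) and Syn3 (11.4 CPM), and only in Syt1 were they fully below Control saline mice.

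The other members of the same families did not pass the threshold. Syp was at 834, 843, 886, 889 and 914 CPM in Control saline mice, 792, 861, 875, 951 and 985 CPM in Control amphetamine mice, 684, 713, 786, 877 and 1013 CPM in High-Active saline mice, and 822, 847, 909, 977 and 979.6 CPM in High-Active amphetamine mice. The groups overlapped throughout, and High-Active saline mice included both the lowest values and the highest. Its log2 fold change was -0.04 (SE 0.06, adjusted p = 0.737), with a 95% interval of -0.17 to 0.09. The interval for Sv2a, the SV2 isoform found in nearly all neurons, was narrower, from -0.10 to 0.09 around an estimate of -0.00 (adjusted p = 0.96). For Syn2, which codes for synapsin II, it ran from -0.11 to 0.10 around -0.01 (adjusted p = 0.935).

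The 3 remaining genes varied more between mice and gave wider intervals. Synpr was the only gene with an estimate above 0, at 0.16 (SE 0.11, 95% interval -0.07 to 0.40, adjusted p = 0.375), with levels of 112 to 249 CPM. Sv2c, an SV2 isoform known from the basal ganglia, ranged from 49.0 to 100.2 CPM and had an estimate of -0.09 (95% interval -0.33 to 0.16, adjusted p = 0.67). Syn3, at 9.17 to 17.4 CPM, had an estimate of -0.08 (95% interval -0.29 to 0.14, adjusted p = 0.67). Within the SV2 family, Sv2b made up 24.5% ± 4.30 (SD, n = 10) of the summed RPKM in Control and 19.5% ± 5.80 in High-Active mice. Sv2a made up 70.4% ± 3.84 and 75.3% ± 5.30, and Sv2c 5.11% ± 0.747 and 5.21% ± 1.45. Among the synapsins the share of Syn1 was 72.3% ± 2.27 in Control and 69.5% ± 2.01 in High-Active mice.

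**Figure D3:**
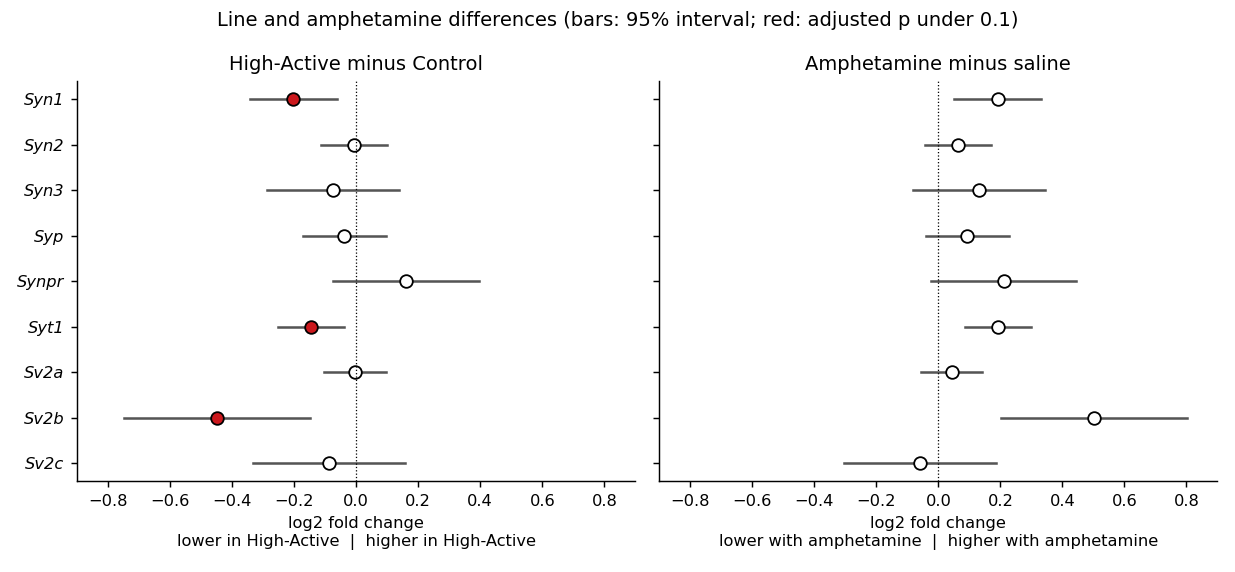
Log2 fold changes of the 9 genes between lines (left) and for amphetamine over both lines (right), with 95% intervals as bars and filled red points for an adjusted p under 0.1. Only Syn1, Syt1 and Sv2b were filled for the line, and no gene was for amphetamine, where the intervals of these 3 genes lay above 0.

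The line differences in Sv2b, Syn1 and Syt1 were close to the threshold and rested on the full set of mice. Leaving out Control saline mouse 411, Control saline mouse 883 or High-Active saline mouse 871 left none of the 9 genes called. The adjusted p of Sv2b was then 0.102, 0.108 and 0.105, and that of Syn1 0.116, 0.117 and 0.104. Syn1 also lost its call without Control amphetamine mouse 407 (adjusted p = 0.102) and without High-Active amphetamine mice 415 (0.118) and 487 (0.112). Syt1 lost its call without any one of 10 mice, with adjusted p values up to 0.144 when High-Active amphetamine mouse 415 was left out. These 10 were Control saline mice 411 (0.134) and 883 (0.114), Control amphetamine mice 407 (0.111) and 454 (0.135), High-Active saline mice 197 (0.102), 499 (0.1003) and 871 (0.125), and High-Active amphetamine mice 415, 487 (0.131) and 905 (0.109). The estimates themselves stayed below 0 in each of these fits, from -0.51 to -0.38 for Sv2b, -0.24 to -0.17 for Syn1 and -0.17 to -0.11 for Syt1. When counts were summed over mice with the same parents, none of the 9 genes was called, while 4.12% of all tested genes were. This fit held no term for treatment, and 6 families pooled mice of both treatments. There was 1 of the 9 genes at an unadjusted p under 0.05, against 2608 of all 14792 tested genes. The estimates were -0.28 for Sv2b (adjusted p = 0.345), -0.16 for Syn1 (0.266) and -0.10 for Syt1 (0.474).

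Within a treatment none of the 9 genes was called, although 3.74% of all genes passed in saline mice and 1.3% in amphetamine mice. At an unadjusted p under 0.05 there were 3 of the 9 genes in saline mice and 0 in amphetamine mice. Of all 14792 tested genes, 2573 in saline mice and 1870 in amphetamine mice were under that unadjusted threshold. In saline mice the log2 fold change was -0.64 (SE 0.20, adjusted p = 0.109) for Sv2b, -0.26 (SE 0.09, adjusted p = 0.154) for Syn1 and -0.16 (SE 0.07, adjusted p = 0.259) for Syt1. In amphetamine mice it was -0.26 (SE 0.20, adjusted p = 0.599), -0.14 (SE 0.09, adjusted p = 0.532) and -0.13 (SE 0.07, adjusted p = 0.449). Estimates were below 0 under both treatments for these 3 genes.

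Sv2b, Syn1 and Syt1 varied together from mouse to mouse, and with markers of cortical excitatory neurons. After subtracting the group means, the log2 CPM of Syn1 correlated with that of Syt1 with r = 0.87 and with that of Sv2b with r = 0.77 over the 20 mice, which share library and depth for the genes compared. The corresponding r was 0.74 between Syp and Syn2, 0.70 between Syp and Sv2a, and -0.45 between Sv2a and Sv2b. Synpr correlated with Sv2b with r = 0.63 and with Syt1 with r = 0.57, and Syn2 with Sv2a with r = 0.61 and with Syt1 with r = 0.56.

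The cortical list held 11 genes for transcription factors and other proteins of cortical projection neurons, such as Tbr1 and Neurod6, and all 11 were tested. Its score was the mean log2 CPM of the list in a mouse. None of the 11 genes was at 0 in any mouse, and their summed level was 429 to 862 CPM in Control and 327 to 873 CPM in High-Active mice. Of the 11 genes, 4 were lower in High-Active mice (Tbr1, Neurod2, Nptx1 and Mef2c), where 6.9% of all tested genes were lower, 10 had estimates below 0, and the median log2 fold change was -0.69. The score was 4.54 ± 0.469 in Control and 3.94 ± 0.741 in the High-Active line (SD, n = 10). The difference was -0.60 (two-sided permutation test, p = 0.047, adjusted over the 8 marker lists p = 0.178). The score also differed between treatments, at 4.59 ± 0.515 after amphetamine and 3.90 ± 0.658 after saline (SD, n = 10; two-sided permutation test chosen after the values were seen, p = 0.019). High-Active saline mice had the lowest mean score, with values of 3.12 to 3.89, and Control amphetamine mice ran from 4.62 to 5.06. The other groups overlapped with both, at 3.64 to 4.97 in Control saline and 3.37 to 5.17 in High-Active amphetamine mice.

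Within the groups, the score correlated with Sv2b (r = 0.92, rho = 0.89, permutation within groups, p = 1e-05, the smallest that 100000 resamples can give, adjusted over 9 genes p = 9e-05). It also correlated with Syn1 (r = 0.88, rho = 0.86, permutation p = 2e-05, adjusted p = 9e-05) and with Syt1 (r = 0.74, rho = 0.63, permutation p = 0.00118, adjusted p = 0.00354). With the 2 most extreme scores left out, r was 0.88, 0.83 and 0.61. In the other 6 genes r lay between -0.41 for Sv2c and 0.47 for Synpr, with no adjusted permutation p under 0.1. Syp, at r = 0.30, and Sv2a, at r = -0.32, had permutation p values of 0.168 and 0.130.

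**Figure D4:**
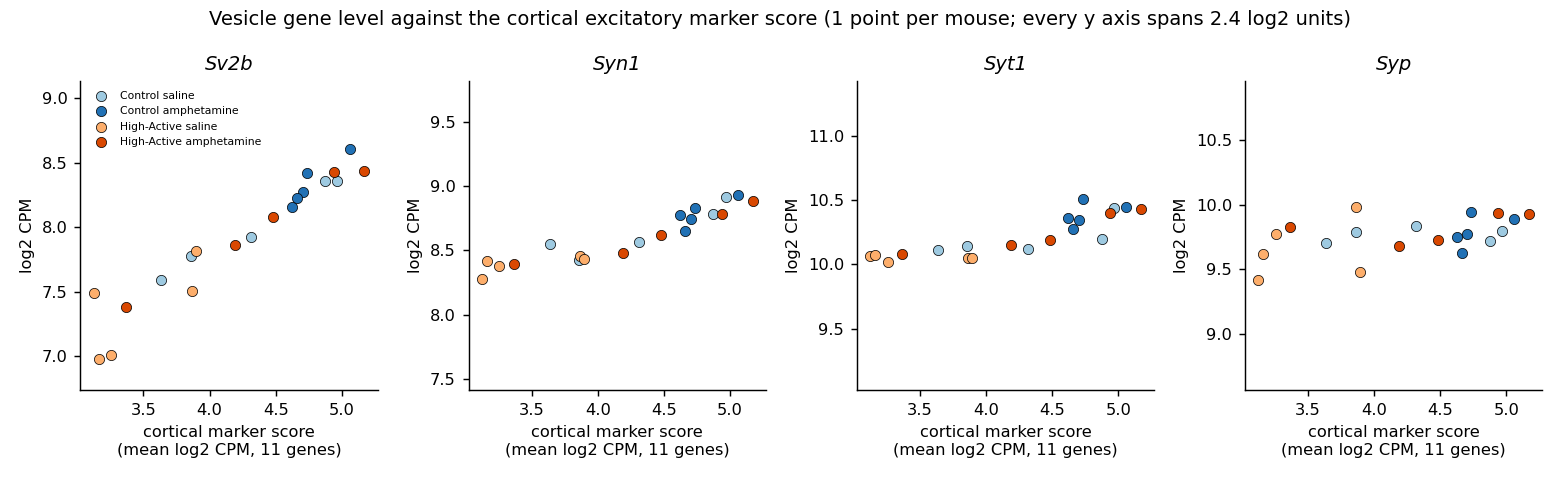
Log2 CPM of Sv2b, Syn1, Syt1 and Syp (y axes of equal span) against the cortical marker score in mean log2 CPM, with 1 point per mouse coloured by group. Sv2b, Syn1 and Syt1 were higher in mice with a higher score within and across groups (r = 0.92, 0.88 and 0.74 within groups), and Syp showed a weaker relation (r = 0.30).

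With the score added to the model as a covariate, none of the 9 genes was called between the lines, while 2.83% of all tested genes were. The log2 fold change was then -0.09 (SE 0.07, adjusted p = 0.616) for Sv2b, -0.04 (SE 0.04, adjusted p = 0.705) for Syn1 and -0.05 (SE 0.04, adjusted p = 0.687) for Syt1. At an unadjusted p under 0.05 there was 1 of the 9 genes, Synpr, with an estimate of 0.31 (SE 0.12, adjusted p = 0.26). In this fit 2031 of all 14792 tested genes were under that unadjusted threshold. The estimates of the 3 called genes were nearer to 0 than without the covariate. Those of Synpr, Sv2c (-0.23, SE 0.13, adjusted p = 0.466), Syn3 (-0.15, SE 0.12, adjusted p = 0.64) and Sv2a (-0.04, SE 0.05, adjusted p = 0.775) were farther from it.

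The other marker lists were compared in the same way, beside the 14.5% of all tested genes called between lines. Oligodendrocyte markers were higher in 2 of 8 genes, astrocyte markers were higher in 2 and lower in 1 of 6, and microglial markers were lower in 1 of 6. None passed among 5 interneuron, 5 endothelial and 6 choroid plexus markers. The oligodendrocyte score was higher in High-Active mice by 0.17 (two-sided permutation test, p = 0.0449, adjusted over the 8 lists p = 0.178), and no score had an adjusted permutation p under 0.1. For medium spiny neurons the score differed by -0.16 between the lines (two-sided permutation test, p = 0.089, adjusted p = 0.178).

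Over all 8 marker scores and the 9 genes there were 72 relations within groups, of which 12 had an adjusted permutation p of r under 0.1. These relations, with the cortical score too, were computed for the 9 genes only. Whether they are particular to vesicle genes was therefore not tested. Besides the 3 with the cortical score, Syt1 was lower in mice with a higher oligodendrocyte score (r = -0.62, rho = -0.56, permutation p = 0.0118, adjusted p = 0.0804), with r = -0.62 also without the 2 mice at the extremes of the score. Syp and Sv2a were lower in mice with a higher medium spiny neuron score (r = -0.72, rho = -0.57, permutation p = 0.00982, adjusted p = 0.0786 and r = -0.71, rho = -0.73, permutation p = 0.00343, adjusted p = 0.0412), and r was -0.49 and -0.66 without those mice. Syn2 (r = -0.73, rho = -0.73, permutation p = 0.00164, adjusted p = 0.0236) and Syp (r = -0.63, rho = -0.59, permutation p = 0.0124, adjusted p = 0.0804) were lower with a higher microglial score, with r = -0.64 and -0.61 without those mice. The other 4 relations were those of Sv2a with interneurons (r = 0.66), Sv2c with endothelial cells (r = 0.65), and Synpr with choroid plexus (r = -0.63) and oligodendrocytes (r = -0.62), with adjusted permutation p values of 0.0236, 0.0626, 0.0786 and 0.0804. Over all 72 relations the adjusted permutation p with the cortical score was 0.00072 for Sv2b, 0.00072 for Syn1 and 0.0236 for Syt1. The part of any cell type in the line differences, cortical neurons included, was not tested.

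**Figure D5:**
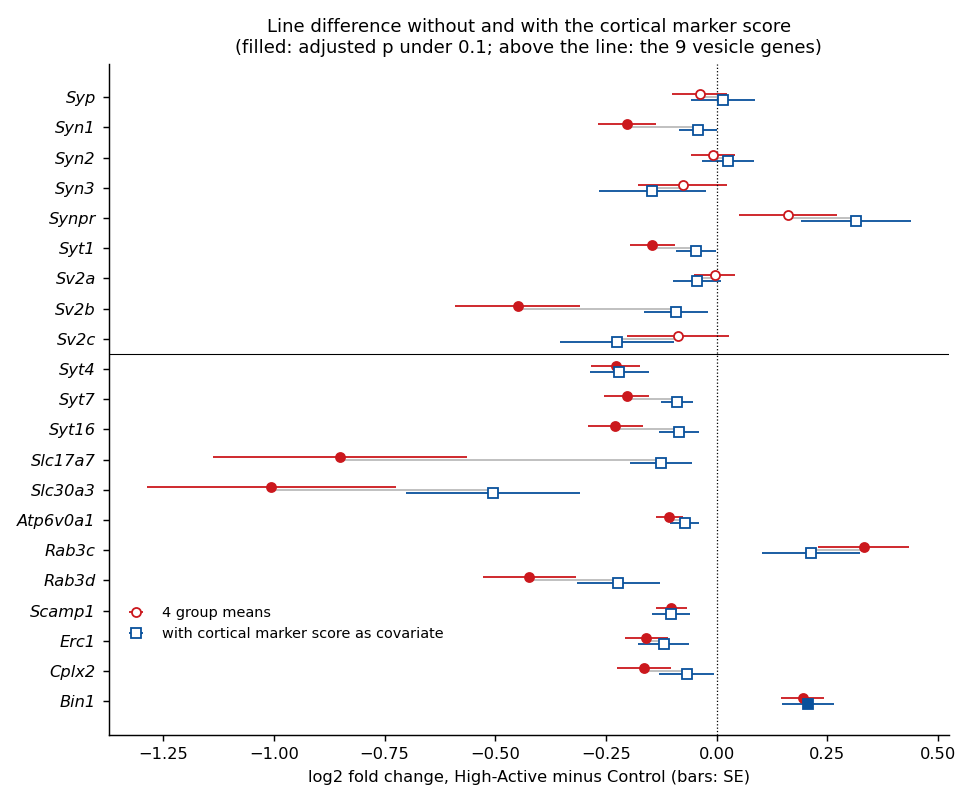
Log2 fold change between lines with its SE, in the model of 4 group means (red circles) and with the cortical marker score as covariate (blue squares), for the 9 genes and for 12 called genes of the other vesicle lists, with filled symbols for an adjusted p under 0.1. With the covariate Sv2b moved from -0.45 to -0.09 and Slc17a7 from -0.85 to -0.13, whereas Syt4 was at -0.23 without and -0.22 with the covariate, and Bin1 at 0.19 and 0.21.

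None of the 9 genes passed the threshold for amphetamine over both lines, and 0% of all tested genes did (edgeR's quasi-likelihood test). At an unadjusted p under 0.05 there were 3 of the 9 genes, against 12.5% of all tested genes, namely Syt1, Sv2b and Syn1. Estimates were above 0 for 8 of the 9 genes, and the median log2 fold change was 0.13, against -0.01 over all tested genes. The estimate was 0.19 (SE 0.05, adjusted p = 0.197) for Syt1, 0.50 (SE 0.14, adjusted p = 0.204) for Sv2b and 0.19 (SE 0.07, adjusted p = 0.253) for Syn1. The likelihood-ratio test with robust dispersions called these 3 genes (3.1% of all genes), with adjusted p values of 0.031, 0.00176 and 0.0847. DESeq2 called Syt1 (adjusted p = 0.0249) and Sv2b (adjusted p = 0.0356), and 2.64% of all genes. limma-voom with families as a block called none of the 9 genes. Within the 6 families that held both treatments (13 mice, 2 Control and 4 High-Active families, 5 residual degrees of freedom), the estimate was 0.15 (SE 0.08) for Syt1, 0.45 (SE 0.25) for Sv2b and 0.21 (SE 0.10) for Syn1, each with an adjusted p of 0.979.

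The amphetamine and line contrasts share all 20 mice and are not independent sets of samples. Within High-Active mice the estimate was 0.69 (SE 0.20, adjusted p = 0.337) for Sv2b, 0.25 (SE 0.09, adjusted p = 0.443) for Syn1 and 0.21 (SE 0.07, adjusted p = 0.411) for Syt1. All 5 High-Active amphetamine mice lay above all 5 High-Active saline mice in Syt1, a separation seen in 0.892% of tested genes between these groups. Within Control mice the estimates were 0.31 (SE 0.20, adjusted p = 0.816), 0.13 (SE 0.09, adjusted p = 0.833) and 0.18 (SE 0.07, adjusted p = 0.761). With the cortical score as covariate the amphetamine estimates were 0.07 (SE 0.08, adjusted p = 0.984) for Sv2b, 0.00 (SE 0.04, adjusted p = 0.999) for Syn1 and 0.08 (SE 0.05, adjusted p = 0.984) for Syt1. The remaining 6 genes ranged from -0.06 (SE 0.12) for Sv2c to 0.21 (SE 0.11) for Synpr, with adjusted p values of at least 0.452. Syp was at 0.09 (SE 0.06, 95% interval -0.04 to 0.23).

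The response to amphetamine did not differ detectably between the lines for any of the 9 genes. None passed the interaction test, as did 0% of all tested genes, and none had an unadjusted p under 0.05, against 2.97% of all genes. The likelihood-ratio test, which called 0.0406% of all genes for the interaction, DESeq2 and limma-voom also called none of the 9 genes. The largest interaction estimate was that of Sv2b at 0.38 (SE 0.28, 95% interval -0.21 to 0.98). Syt1 had an estimate of 0.03 (SE 0.10, 95% interval -0.19 to 0.24), and Syp one of 0.12 (SE 0.13, 95% interval -0.14 to 0.39). The intervals allow differences of response as large as the line differences.

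Other genes were taken from 8 lists of 98 genes, 7 lists of the vesicle cycle and 1 of the 3 metalloproteinase inhibitor genes nested in synapsin genes, and 94 of the genes were tested. Of these, 2 were upregulated and 10 downregulated in High-Active mice (12.8%, against 14.5% of all tested genes), and the median log2 fold change was -0.04. Among 13 other synaptotagmins 3 were lower and 10 did not pass. Syt7, a slow, high-affinity calcium sensor, was lower (259 ± 21.1 CPM in Control and 226 ± 23.4 CPM in High-Active mice, log2 fold change -0.20, adjusted p = 0.0196). Syt4, a synaptotagmin of dense-core vesicles, was also lower (256 ± 23.5 and 219 ± 16.0 CPM, -0.23, adjusted p = 0.0175), as was Syt16 (-0.23, adjusted p = 0.034). Among 8 transporters of the vesicle membrane 2 were lower, and 6 did not pass. These were Slc17a7, the vesicular glutamate transporter of cortical neurons (412 ± 144 and 261 ± 208 CPM, -0.85, adjusted p = 0.0731), and Slc30a3, the zinc transporter of cortical glutamate vesicles (27.2 ± 8.71 and 15.8 ± 13.3 CPM, -1.01, adjusted p = 0.037). With the cortical score as covariate both were not called (adjusted p = 0.45 and 0.251).

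The acidifying proton pump had 1 lower gene among 15, its membrane subunit Atp6v0a1 (-0.11, adjusted p = 0.0379). Of 13 other vesicle-associated proteins Rab3c was higher (0.33, adjusted p = 0.0536), and Rab3d (-0.42, adjusted p = 0.0209) and Scamp1 (-0.10, adjusted p = 0.0758) were lower. Rab3c and Rab3d are both small GTPases of secretory vesicles, and they moved in opposite directions. Of 21 genes of the release and active zone machinery Erc1, an active zone scaffold (-0.16, adjusted p = 0.053), and Cplx2, a complexin that clamps SNARE complexes (-0.16, adjusted p = 0.0989), were lower. Of 17 genes of vesicle endocytosis Bin1, an amphiphysin, was higher (0.19, adjusted p = 0.0231). Among 5 relatives of synaptophysin and the synaptogyrins none passed, with the smallest p in Syngr2 (0.23, SE 0.12, adjusted p = 0.224). With the cortical score as covariate 1 of the 94 genes was called, Bin1 (0.21, adjusted p = 0.0921), and Syt4 was at -0.22 (adjusted p = 0.12).

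The synapsin genes carry genes for tissue inhibitors of metalloproteinases in their introns, on the opposite strand. Timp1 lies within Syn1 and shares none of its exon bases, Timp4 lies within Syn2 and shares 90 exon bases, and Timp3 lies within Syn3 and shares 1733 of the 12282 exon bases of Syn3. Whether the counting used the strand is not given in the sources used here, so reads on shared bases cannot be assigned with certainty. Timp3 averaged 128 ± 11.7 CPM in Control and 133 ± 16.9 CPM in High-Active mice (0.05, adjusted p = 0.675). Timp4 had 19.0 ± 1.94 and 21.6 ± 3.63 CPM (0.19, SE 0.09, adjusted p = 0.175). Timp1 had 130 reads over all 20 mice and was not tested. Syp shares 875 of its 5211 exon bases with the antisense gene Gm14703, which had 799 reads over the 20 mice.

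The genes most like each vesicle gene were sought among all tested genes by the correlation of log2 CPM over the 20 mice after subtracting group means. Sv2b was most like Mpped1 (r = 0.96), Vxn (r = 0.96) and Gm11549 (r = 0.95). Syn1 was most like Lingo1 (r = 0.96), Nuak1 (r = 0.93) and Rtn4rl2 (r = 0.93), of which Rtn4rl2 was lower in High-Active mice (log2 fold change -0.97, adjusted p = 0.0397). Syt1 was most like Tmem132d (r = 0.92), Jdp2 (r = 0.91) and Hivep1 (r = 0.91). Of the 9 genes most like these 3 vesicle genes, 1 was called between lines, near the 14.5% of all tested genes. Syp was most like Rnf115 (r = 0.94), Stmn3 (r = 0.92) and Kcnc4 (r = 0.90), Syn2 like Tmem200a (r = 0.94), Mapk8ip2 (r = 0.93) and Chd5 (r = 0.91), and Sv2a like Arl4c (r = 0.95), Coro6 (r = 0.94) and Adcy8 (r = 0.94). Of these, only Arl4c was called between lines, and it was higher in High-Active mice (log2 fold change 0.28, adjusted p = 0.0989). The closest genes were Txn2 (r = 0.86), Tmco5 (r = 0.84) and Htr1f (r = 0.84) for Synpr, Utp20 (r = 0.85), Dnajc24 (r = 0.83) and Klhl11 (r = 0.83) for Syn3, and Kazn (r = 0.88), Dcc (r = 0.83) and Jmjd1c (r = 0.81) for Sv2c. Correlations above 0.8 were held with 1.25% of tested genes by Sv2a, 1.16% by Sv2b and 0.94% by Syn1, and with 0.0338% by Sv2c.

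The relation of the 9 genes to home cage activity was asked within each line, over 10 mice, with the distance traveled at re-phenotyping. Saline and amphetamine mice of a line were pooled without subtracting group means, and mice with the same parents were treated as independent. Of 18 relations none passed after adjustment, with a lowest adjusted permutation p of 0.295 for Pearson's r and 0.137 for Spearman's rho. At an unadjusted permutation p under 0.05 there were 2 relations by r and 5 by rho. The largest r was that of Syn1 in Control mice (r = 0.72, rho = 0.73, permutation p = 0.0164 for r), followed by Sv2b in Control mice (r = 0.66, rho = 0.65, permutation p = 0.0372). With the 2 most extreme distances left out, these were 0.44 and 0.47, and the sign of r changed in 5 of the 18 relations. Without these mice Syn2 in High-Active mice had r = 0.87 (adjusted permutation p = 0.0931), against 0.17 with all 10 mice.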

How the data were processed

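Paired reads from 20 striatal RNA libraries were aligned by the authors to GRCm38 with TopHat2 2.0.10 and counted per Ensembl gene with HTSeq 0.6.1. The deposited files hold these unnormalized read counts, and the strand setting of the counting is not given in the sources used here. Genes over 1 CPM in at least 3 mice were normalized by TMM and tested with edgeR 4.0.16 (R 4.3.3) by the quasi-likelihood test, with a mean for each of 4 groups. The line, amphetamine and interaction contrasts were adjusted over all 14792 genes by the Benjamini-Hochberg method, with a threshold of 0.1. Standard errors were the log2 fold change divided by the root of the F statistic, and 95% intervals used 16 degrees of freedom. CPM used TMM library sizes and log2 CPM a prior count of 2. Symbols matched 37607 gene identifiers, and Slc18a3 of the lists was not matched. Exon lengths and overlaps were taken from GENCODE M21 on GRCm38. Marker scores were compared by two-sided permutation (100000 resamples, scipy 1.17.1) and exactly for groups of 5. The fit was tested on simulated data with 200 changed genes. Named genes were the 9 genes, up to 3 called genes with the smallest p in each list (otherwise the 1 with the smallest p), the nested Timp genes, and the 3 genes most like each of the 9. DESeq2 1.42.0, limma 3.58.1 and other settings served as alternatives. The 9 genes, the lists and the tests were chosen with earlier results of these data known. Each mouse is 1 library, and the p-values measure the spread between mice. The fit of amphetamine within families and the relations to the other marker scores were added after seeing the data.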

Additional observations from a re-analysis of the deposited data

Results flagged for a closer look

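Of 40 sets of 5 values examined, the 9 genes and the cortical marker score in each of 4 groups, 2 held a mouse that stood apart from the other 4. Chance alone would mark about 1 in 20 sets. Syt1 was highest in Control saline mouse 411, at a log2 CPM of 10.44, with the other 4 mice between 10.11 and 10.20. Without this mouse the line difference of Syt1 was -0.11 (adjusted p = 0.134), and Syt1 was called for amphetamine (0.23, adjusted p = 0.064, edgeR's quasi-likelihood test). The cortical marker score was highest in Control amphetamine mouse 407, at 5.06, with the other 4 mice between 4.62 and 4.74. Without that mouse the line difference of the score was -0.54 (permutation test, p = 0.0768).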

How the results depend on the processing

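The number of the 9 genes called between lines was 3 or 2 under the likelihood-ratio test, DESeq2, RLE normalization, both other filters and limma-voom with families as a block (consensus correlation 0.0264). Syt1 was the gene not called under the likelihood-ratio test (adjusted p = 0.11) and without a filter (0.128). The number was 0 with the cortical marker score as covariate, 0 with counts summed over families, 0 in the contrast of saline mice and 0 in that of amphetamine mice. Leaving out 1 mouse gave 0 to 3. The summed fit holds fewer samples and no term for treatment. The saline and amphetamine results are contrasts of fewer mice within the model of all 20 mice, not separate fits. The cause of the changes was not tested. For amphetamine the number was 3 under the likelihood-ratio test and 2 under DESeq2, and 0 to 2 with 1 mouse left out, where mouse 415 gave 2 (Syt1 and Sv2b, with 339 genes called in all) and Control saline mouse 411 gave 1. It was 0 under the other 8 settings. For the interaction it was 0 under all 8 settings and all 20 omissions. Over all 14792 tested genes, 2149 were called between lines, 2269 by the likelihood-ratio test, 2810 by DESeq2 and 1872 by limma-voom. RLE normalization gave 2147, no filter 1893 of 26116 genes, and over 1 CPM in at least 5 mice 2089 of 14533. The number was 419 with the covariate, 609 with summed families, 553 in saline mice and 193 in amphetamine mice. With 1 mouse left out it ran from 1381 to 2535. For amphetamine it was 458 by the likelihood-ratio test and 391 by DESeq2, against 0. Of the vesicle lists, 12 genes were called between lines, 21 by the likelihood-ratio test, 19 by DESeq2, 1 with the covariate, 2 with summed families, 4 in saline mice, 1 in amphetamine mice and 8 to 20 with 1 mouse left out, the 20 without Control saline mouse 477. The cortical score differed by -0.33 in amphetamine mice alone (exact permutation test, p = 0.389), and by -0.73 to -0.51 with 1 mouse left out, where the permutation p was 0.0131 to 0.0855 and exceeded 0.05 in 13 of 20 omissions: all Control amphetamine and all High-Active saline mice, Control saline mice 411 and 883, and High-Active amphetamine mouse 415. Without the 2 mice farthest from the median distance 1 of 18 relations to activity passed, against 0.

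Directions reversed only in genes that were not called in the same contrast. Between lines, the covariate gave 0.014 for Syp, 0.025 for Syn2 and -0.056 for Timp3, summed families gave 0.020 for Syn2, saline mice gave 0.023 for Sv2c, and amphetamine mice gave 0.023 for Syp, 0.013 for Syn2 and 0.026 for Sv2a. With 1 mouse left out Syn2 ran from -0.031 to 0.010 and Sv2a from -0.027 to 0.019. For amphetamine, Sv2c was at 0.12 with the covariate and at 0.051 in Control mice, and ran from -0.12 to 0.025 with 1 mouse left out. For the interaction, the covariate gave -0.043 for Syn1, -0.073 for Syt1 and -0.011 for Sv2b, and with 1 mouse left out Syn3 ran from -0.16 to 0.037 and Syt1 from -0.037 to 0.067. The mice carry individual numbers, but 6 families held mice of both treatments. With family as a replicate block, chosen after seeing the data, 0 of the 9 genes were called for amphetamine and 0 for the interaction, with 0 at an unadjusted p under 0.05 in either, and 1 of all tested genes was called in each. Of all 14792 tested genes, 626 for amphetamine and 184 for the interaction were under that unadjusted threshold. Lines could not be compared within families. The labels name no batch other than the parents.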
